A study of Homo sapiens with 6 samples.

Results

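The genes described here lie on the part of the long arm of chromosome 13 nearest the centromere (proximal 13q), from CRYL1 to UFM1. They were chosen by position and by their signal in this same comparison, as a stretch of neighbouring genes with lower values on the arrays labelled PSMA. Their differences and the counts of limma calls among them are therefore descriptions and no independent evidence of a shift. The list held 44 genes, set against 11963 genes with a single-gene probe set in the annotation. Of the 44, 35 had at least 1 probe set annotated to that gene alone, with CENPJ found under its newer symbol CPAP. Of these, 30 passed the filter on dim signal, which asked for a value above the median of the whole table on at least 3 of the 6 arrays, and 5 did not. The remaining 9 were not analysed here, among them LATS2, ZDHHC20, TNFRSF19, MTIF3, LNX2, PAN3, KATNAL1 and B3GLCT.

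RNA came from PC3, a human prostate cancer cell line derived from a bone metastasis and grown in RPMI medium. The group labelled PSMA (3 arrays, numbered 4 to 6) was said to carry a plasmid, pLNCX-PSMA, for prostate-specific membrane antigen, the product of FOLH1. The group labelled control (3 arrays, numbered 1 to 3) was called wild type in its titles and vector only in its source label. Both were transfected with FuGENE and selected with puromycin, per the labels' protocols, and whether either line was 1 clone or a pool was not given. The study asked which transcripts differ between such cells.

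The FOLH1 signal went against the labels. Its single-gene probe set read 61.5, 59.7 and 60.4 (arbitrary intensity units) on the arrays labelled control and 24.4, 32.0 and 28.0 on those labelled PSMA. All 5 probe sets of FOLH1 or its near-identical paralog FOLH1B were lower on the arrays labelled PSMA, by 2.17-fold to 39.4-fold. FOLH1 was also the last of a run of 11 consecutive tested genes on chromosome 11, starting at ACP2, that limma called lower. Whether its signal goes with that of these neighbours was not tested. Every direction below follows the labels as deposited, so "lower" means lower on arrays labelled PSMA; on these the FOLH1 signal was lower too. Pairs of arrays within a group had correlations of 0.9976 to 0.9981 over probe sets (log2 values), and pairs across the groups 0.9874 to 0.9878. All 5 epithelial markers looked at (KRT8, KRT18, EPCAM, CDH1 and KRT19) passed the filter, with a summed mean intensity of 16763 on the arrays labelled control and 13490 on those labelled PSMA. None of the 4 leucocyte markers measured passed it, and their summed intensity was 46.9 and 50.8. Of 5 fibroblast and endothelial markers, PECAM1 and COL1A1 passed it, and the summed intensity of the list was 189.6 on the arrays labelled control and 205 on those labelled PSMA. The part of other cell types in the results was not tested.

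Neighbouring genes on a chromosome need not share a function, but they share their DNA copy number: when a segment is lost or gained, the RNA of many genes within it tends to shift together. Chromosome 13q is one of the arms often altered in prostate cancer, and PC3 is a rearranged, aneuploid line. The arrays measured RNA and not DNA, so copy number was not tested here. The stretch holds genes of general cell upkeep, such as subunits of RNA polymerases, the exosome, the proteasome assembly line and the nuclear pore, beside a few with tissue-restricted expression.

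Most of the tested genes from CRYL1 to UFM1 were lower on the arrays labelled PSMA. By limma with a Benjamini-Hochberg threshold of 0.05, 25 of the 30 tested members were called lower, beside 33.5% of all 7035 tested genes, and 5 were called higher, beside 30.1%. Their median log2 difference was -1.12, against -0.01 over all tested genes. Their quartiles were -1.33 and -0.69, against -0.23 and 0.20 over all tested genes. In all, 19 members were lower by 2-fold or more, as were 2.52% of all tested genes. The values of the groups did not overlap in 29 of the 30 members, beside 69.5% of all tested genes. In a limma test against a minimum fold of 1.5, 22 members were called lower, beside 3.91% of all tested genes. Since the members were picked on these values, nothing is read from these shares.

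**Figure D1:**
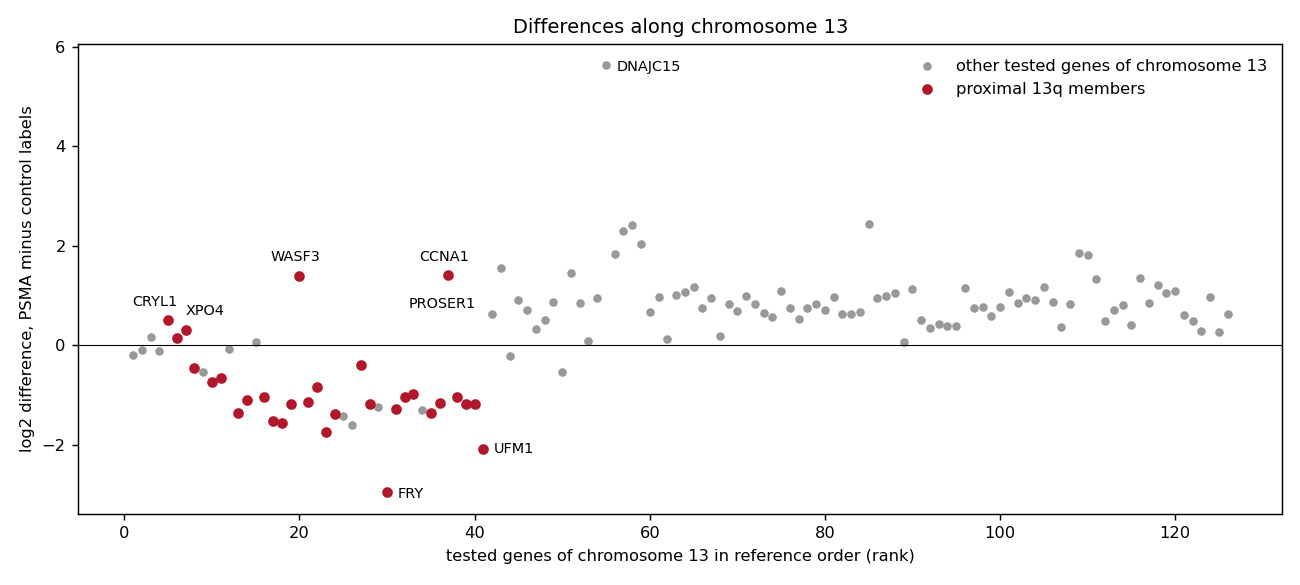
Log2 difference (arrays labelled PSMA minus arrays labelled control, 3 each) of the 126 tested genes of chromosome 13, placed by their rank in RefSeq reference order; red points are the members and grey points other genes. Members from SAP18 to UFM1 lie below 0 except WASF3 and CCNA1, members from CRYL1 to XPO4 lie above 0, and most genes after UFM1 lie above 0.

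The stretch began between XPO4 and SAP18. The 4 tested genes on the centromeric side of CRYL1 (MPHOSPH8, PSPC1, ZMYM5 and ZMYM2) did not pass the threshold, with log2 differences of -0.19 to 0.17. The first members in reference order were slightly higher. CRYL1, an enzyme of sugar-acid metabolism, read 117, 125 and 143 on the arrays labelled control and 176, 198 and 172 on those labelled PSMA. XPO4, a nuclear transport receptor, read 175, 182 and 167 against 225, 210.2 and 216. In both genes every array labelled PSMA lay above every array labelled control, and the folds were 1.42 and 1.24. The groups did not overlap in 69.5% of all tested genes. IFT88, a subunit of the particle that carries cargo along cilia, read 182, 171 and 159 against 193, 197 and 179.6. Here the groups overlapped, and the log2 difference of 0.16 (SE 0.061) passed limma's threshold with all arrays and without control replicate 1 or PSMA replicate 6. Without control replicate 2 or 3, or PSMA replicate 4 or 5, IFT88 did not pass (limma adjusted p of 0.0969, 0.135, 0.123 and 0.151), and 4 members rather than 5 were called higher. It also did not pass with no filter on dim probe sets (limma adjusted p = 0.111).

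The lowered values came in a shallow part and a deeper part. SAP18, a protein of histone deacetylase and splicing complexes, read 3306, 3417 and 3580 on the arrays labelled control and 2418, 2508 and 2540 on those labelled PSMA. MICU2, which gates calcium entry through the mitochondrial uniporter, read 1341, 1344 and 1320 against 776, 803 and 813. MIPEP, a peptidase that trims imported mitochondrial proteins, read 265, 255 and 277 against 163, 177 and 163. In these 3 neighbours the groups did not overlap, as in 69.5% of all tested genes, and the log2 differences stayed between -0.46 and -0.74. MRPL57, a mitochondrial ribosomal gene between SAP18 and MICU2 that was not on the list, had a log2 difference of -0.54.

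From PARP4 onward most of the differences were larger. HMGB1 (-0.40), within that part, had a smaller one than SAP18, MICU2 and MIPEP, and GTF3A (-0.83) came near MICU2 (-0.74). The tested non-members NUS1P3, just before PARP4, and PABPC3, after it, had -0.08 and 0.06. PARP4, the poly(ADP-ribose) polymerase of vault particles, read 1894, 1901 and 1852 against 729.5, 736 and 748, a log2 difference of -1.35 (SE 0.040). Of the 24 tested members from PARP4 to UFM1, 22 were called lower, beside 33.5% of all tested genes. The median of the 24 was -1.18, against -0.67 for SAP18, MICU2 and MIPEP. The border between the shallow and the deep part was placed after the values were seen. In sliding windows of 5 consecutive tested genes the median was 0.16 from CRYL1 to MRPL57, -0.54 from XPO4 to MIPEP, -1.09 from PARP4 to NUP58 and -1.17 from SPART to SUPT20H.

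The distal end was abrupt. UFM1, a ubiquitin-like protein that is attached to targets at the endoplasmic reticulum, was the last member in reference order. It read 2439, 2480 and 2130 on the arrays labelled control and 487, 571 and 602 on those labelled PSMA, 4.25-fold lower (log2 difference -2.09, SE 0.088). The next tested gene in reference order, PROSER1, was higher, going from 51.9 ± 2.89 (SD, n = 3), near the filter level of 52.5, to 80.8 ± 2.72. After it came LHFPL6 (log2 difference 1.55), FOXO1 (-0.22, not past the threshold), MRPS31 (0.91) and SLC25A15 (0.70). Over the 85 tested genes from PROSER1 to CDC16, 80 were called higher and 1 lower, beside 30.1% and 33.5% of all tested genes. Their median log2 difference was 0.83, and 0.51 with no filter on dim probe sets. Some of them, such as DNAJC15, RGCC and PCCA, exceeded the filter level only on arrays labelled PSMA, so they could enter only by being higher. Among the tested genes, both sides of this border lay away from 0, in opposite directions. The difference between the proximal and distal genes was not tested, since both were picked on the same values.

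**Figure D2:**
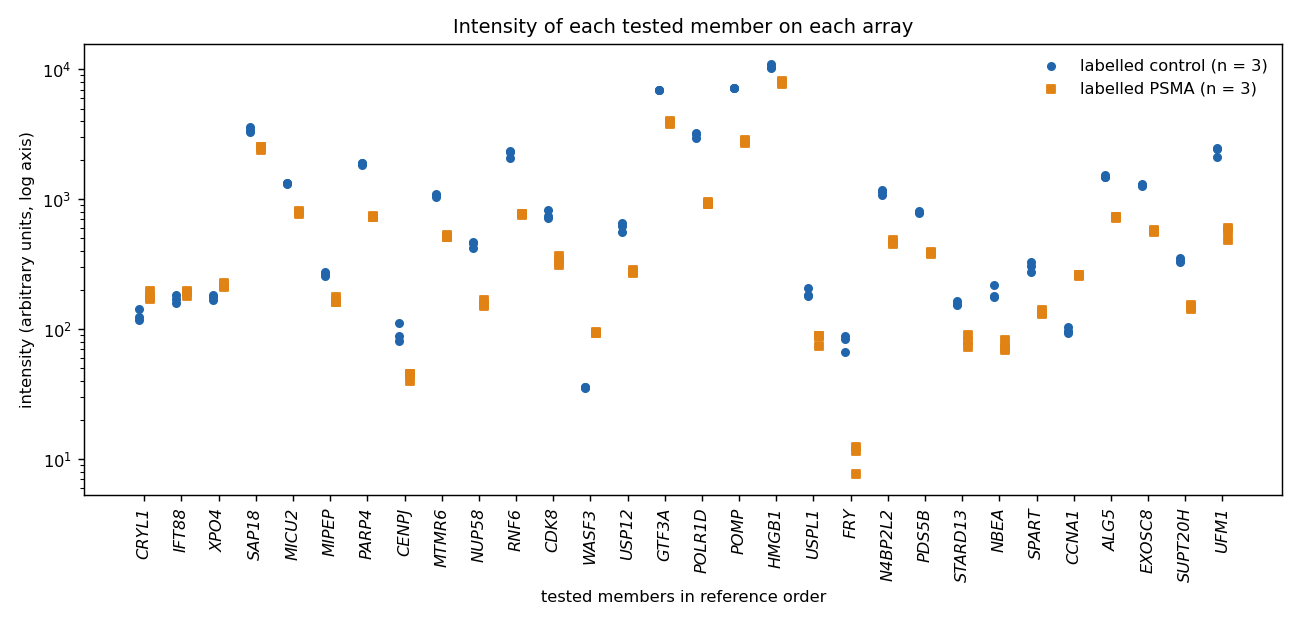
Intensity (arbitrary units, log axis) of each of the 30 tested members on each array, in RefSeq reference order; circles are the 3 arrays labelled control and squares the 3 labelled PSMA. Replicates lie close together, the squares lie below the circles in 25 members, and WASF3 and CCNA1 show squares well above circles inside the lowered stretch.

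The replicates of a group agreed closely on the size of the shift. With each gene set relative to its mean on the arrays labelled control, the 25 lower members had a median log2 value of -1.12, -1.18 and -1.17 on PSMA arrays 4, 5 and 6. The same median was 0.01, 0.01 and -0.02 on the arrays labelled control. The centring sets the control medians near 0, and the choice of members called lower sets the others below 0. Only the spread between arrays of a group is described, and limma calls favour genes with a small spread.

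Genes of RNA synthesis, processing and transcriptional control were among the lowered members. POLR1D, a subunit shared by RNA polymerases I and III, read 3182, 2976 and 3230 on the arrays labelled control and 958, 926 and 919 on those labelled PSMA, 3.35-fold lower. GTF3A, the factor that starts transcription of 5S ribosomal RNA genes, read 6928, 6963 and 6944 against 3991, 3908 and 3828, 1.78-fold lower. Their log2 differences of -1.74 (SE 0.047) and -0.83 (SE 0.040) were further apart than these errors. EXOSC8, a subunit of the RNA-degrading exosome, read 1308, 1267 and 1296 against 583, 560.2 and 573. CDK8, the kinase of the Mediator complex, read 827, 741 and 717 against 364, 335 and 312. SUPT20H, a structural subunit of the SAGA coactivator, read 327, 351 and 335 against 155, 149 and 144. These last 3 had log2 differences of -1.17, -1.18 and -1.18.

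The lowered members of protein turnover and glycosylation included POMP, a chaperone that helps assemble the proteasome core. It read 7141, 7181 and 7136 on the arrays labelled control and 2710, 2745 and 2848 on those labelled PSMA, 2.58-fold lower. RNF6, a ubiquitin ligase, read 2325, 2348 and 2068 against 777, 752 and 767, 2.93-fold lower. USP12, an enzyme that removes ubiquitin, went from 613 ± 47.7 to 278 ± 8.44 (SD, n = 3), and USPL1, which removes the related modifier SUMO, from 190.2 ± 14.6 to 83.7 ± 8.20. ALG5, an enzyme that prepares glucose for N-glycans, went from 1498 ± 31.5 to 727 ± 7.55. In all 5 genes no array of one group reached into the other, as in 69.5% of all tested genes.

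Genes of chromosomes, centrioles and the nuclear pore were lower as well. PDS5B, which regulates cohesin rings, read 798, 780.0 and 808 on the arrays labelled control and 381, 391 and 388 on those labelled PSMA, a log2 difference of -1.04. NUP58, part of the central channel of the nuclear pore, read 468, 462 and 421 against 168, 155 and 150.2, a log2 difference of -1.51. CENPJ, which sets centriole length, read 88.4, 111 and 80.4 against 45.3, 40.04 and 44.8. HMGB1, an abundant chromatin protein, stood apart with a small difference: 10250, 10919 and 10352 against 8207, 7947 and 7675, a log2 difference of -0.40 (SE 0.047). Its 3 probe sets gave -0.40, -0.49 and -0.77. These carry the suffix that the array maker uses for probes that may bind other transcripts, as do the probe sets used here for PDS5B and SUPT20H, and the part of such binding in the values was not tested.

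The remaining lowered members have varied roles. MTMR6, a phosphoinositide phosphatase, went from 1069 ± 32.8 to 518 ± 12.0 (SD, n = 3). SPART, the spartin protein of lipid droplets, went from 302 ± 26.9 to 134 ± 4.32, and NBEA, a vesicle-trafficking scaffold, from 191 ± 23.7 to 74.2 ± 7.04. STARD13 went from 158 ± 4.95 to 81.0 ± 8.81. N4BP2L2 went from 1136 ± 47.9 to 469 ± 17.2. The log2 differences of these 5 genes ran from -0.97 in STARD13 to -1.36 in NBEA.

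FRY, a large scaffold protein of the cell cortex and spindle, had a log2 difference of -2.96 (SE 0.18), the lowest of the stretch on the values as deposited. It read 89.1, 83.8 and 66.8 on the arrays labelled control and 12.3, 11.4 and 7.61 on those labelled PSMA. The second set of values lies near the background of the table, whose 25th percentile was 13.02, so the ratio depends on how background was treated. With a pseudocount of 16 the FRY log2 difference was -1.86, above the -2.06 of UFM1, so that UFM1 was then the lowest, and with that percentile as the lowest allowed value it was -2.61. FRY, CENPJ and WASF3 each passed the filter on the arrays of only 1 group, so they could enter only by differing.

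WASF3 and CCNA1, inside the deep part, went the other way. WASF3, an organiser of actin branching in the WAVE family, read 35.6, 36.1 and 35.0 on the arrays labelled control and 94.6, 93.8 and 93.7 on those labelled PSMA, 2.65-fold higher. CCNA1, a cyclin known mainly from male germ cells, read 94.0, 97.2 and 104 against 256, 263 and 263, also 2.65-fold higher. The groups did not overlap in either gene, as in 69.5% of all tested genes, and WASF3 lay below the filter level on the arrays labelled control. Their tested neighbours in reference order, CDK8 and USP12 beside WASF3 and SPART and ALG5 beside CCNA1, had log2 differences of -1.04 to -1.18. Promoter sequences are shown for the genes at the extremes of the stretch, WASF3 and CCNA1 as the highest and UFM1 and FRY as the lowest on the values as deposited. Each runs 5′ to 3′ on the gene's strand, from 250 bases before to 50 bases after the annotated start, from RefSeq (GRCh38.p14), with CG dinucleotides in capitals.
WASF3, chr13:26557433-26557732, plus strand: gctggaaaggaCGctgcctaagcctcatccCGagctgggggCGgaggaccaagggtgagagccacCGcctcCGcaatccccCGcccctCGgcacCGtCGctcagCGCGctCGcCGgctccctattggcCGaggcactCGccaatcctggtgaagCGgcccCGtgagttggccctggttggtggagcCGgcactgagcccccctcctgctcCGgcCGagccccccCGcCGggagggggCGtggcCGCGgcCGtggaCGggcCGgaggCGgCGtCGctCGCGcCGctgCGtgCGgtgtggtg
CCNA1, chr13:36431705-36432004, plus strand: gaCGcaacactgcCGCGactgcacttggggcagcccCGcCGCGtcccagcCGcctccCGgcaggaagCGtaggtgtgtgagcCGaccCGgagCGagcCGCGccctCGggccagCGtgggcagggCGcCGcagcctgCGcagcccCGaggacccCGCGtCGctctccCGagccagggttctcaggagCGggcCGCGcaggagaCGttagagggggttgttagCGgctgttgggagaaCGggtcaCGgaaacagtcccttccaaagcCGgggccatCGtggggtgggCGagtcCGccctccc
UFM1, chr13:38349601-38349900, plus strand: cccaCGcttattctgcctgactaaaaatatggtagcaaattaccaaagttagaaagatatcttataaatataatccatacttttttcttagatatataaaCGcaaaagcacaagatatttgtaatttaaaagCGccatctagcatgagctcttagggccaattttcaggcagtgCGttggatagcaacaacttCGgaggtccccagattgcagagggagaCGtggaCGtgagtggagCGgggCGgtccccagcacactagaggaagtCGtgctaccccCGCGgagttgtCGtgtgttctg
FRY, chr13:32031524-32031823, plus strand: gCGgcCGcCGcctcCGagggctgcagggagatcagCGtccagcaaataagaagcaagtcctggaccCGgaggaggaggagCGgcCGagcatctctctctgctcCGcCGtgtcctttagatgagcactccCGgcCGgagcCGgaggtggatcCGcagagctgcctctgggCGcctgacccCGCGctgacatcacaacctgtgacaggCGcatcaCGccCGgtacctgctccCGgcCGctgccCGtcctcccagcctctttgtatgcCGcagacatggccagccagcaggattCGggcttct

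The promoters of the WASF3 and CCNA1 genes held 36 and 35 CG dinucleotides, those of UFM1 and FRY 13 and 25. For each gene symbol the first listed promoter was taken, and whether its start is the one used in PC3 was not tested. The median over 27305 promoters of the same length was 14. These promoters included those of genes not tested here, whereas the members compared below passed the filter. The shares below are therefore not matched for expression. Promoters were found for 26 of the 30 tested members, with a median of 29 CG dinucleotides and a median GC content of 66.8% (58.3% over all promoters). The 21 lowered members with a promoter had a median of 27 and ranged from 3 in STARD13 to 47 in USP12, so CG-rich and CG-poor promoters were both among them. The GC box (GGGCGG on either strand) was present in 15 of these 21 and in all 5 promoters of the higher members, beside 44.6% of all promoters. The CCAAT box (CCAAT on either strand) was present in 7 of the 21, beside 35.7%, and the ETS motif (CCGGAAG on either strand) in 5, beside 10.7%. The TATA motif (TATAAA on either strand) was present in 4 of the 21, beside 12.0%, and the E box (CACGTG) in 2, beside 7.43%. Matches of different motifs could share bases, and a match is a description of letters, not of a bound factor.

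Several probe sets measured the same member in 11 cases. In 9 of the members, SAP18, MIPEP, USP12, GTF3A, HMGB1, FRY, N4BP2L2, PDS5B and SUPT20H, every probe set gave a negative log2 difference, dim ones included. The 5 probe sets of N4BP2L2 ran from -1.28 to -2.08, and the pair of MIPEP gave -0.67 and -0.62. The probe sets of SAP18 gave -0.46, -0.62 and -0.09, the last from a probe set close to the filter. RNF6 and SPART each had a dim probe set with a small positive value (0.18 and 0.16) beside a bright one at -1.55 and -1.17.

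**Figure D3:**
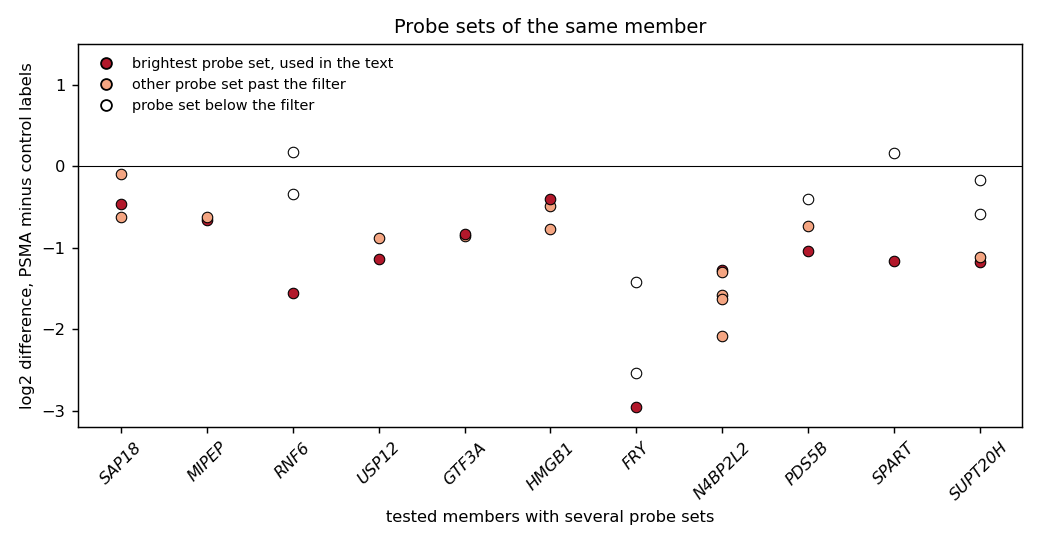
Log2 difference (PSMA minus control labels) of every probe set of the 11 tested members with several; dark points are the brightest probe sets, used in the text, light points other probe sets past the filter, white points those below it. All probe sets past the filter lie below 0, and the 2 points above 0 are dim probe sets of RNF6 and SPART.

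The 5 members below the filter had log2 differences close to 0. The nearest below it was RFXAP, a subunit of the factor that switches on class II HLA genes, at 35.9, 31.1 and 31.4 against 27.5, 29.9 and 29.9. The groups did not overlap, but the log2 difference was -0.17. N4BP2L1, ALOX5AP, the partner protein of 5-lipoxygenase, SMAD9, a BMP signal transducer, and DCLK1, a microtubule-binding kinase, had log2 differences of -0.15 to 0.27, and their groups overlapped. At these levels, from 4.97 to 28.9 over the 4 genes, a shift of the size seen in brighter neighbours may not be measurable. The member that passed the filter most narrowly was FRY, described above.

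Genes between CRYL1 and UFM1 that were not on the list gave a mixed picture. Of 7 such tested genes, 5 were called lower, beside 33.5% of all tested genes. These were MRPL57, the amino acid transporter SLC7A1 (log2 difference -1.43), the ubiquitin-like UBL3 (-1.60), the chaperone HSPH1 (-1.24) and the replication clamp loader subunit RFC3 (-1.29). The exceptions were NUS1P3, a pseudogene, and PABPC3, a poly(A)-binding protein gene closely similar to the abundant PABPC1, with -0.08 and 0.06. From USP12 to SPART, 16 consecutive tested genes, members and others, were all called lower. Runs of this kind were found elsewhere too, the longest with 22 genes on the X chromosome (ATP6AP2 to EBP) and 20 on chromosome 17 (MAP2K4 to TOP3A). A run of 19 lay on chromosome 8 (ZNF623 to ZFTRAF1), and runs of 15 on chromosomes 11 and 7.

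**Figure D4:**
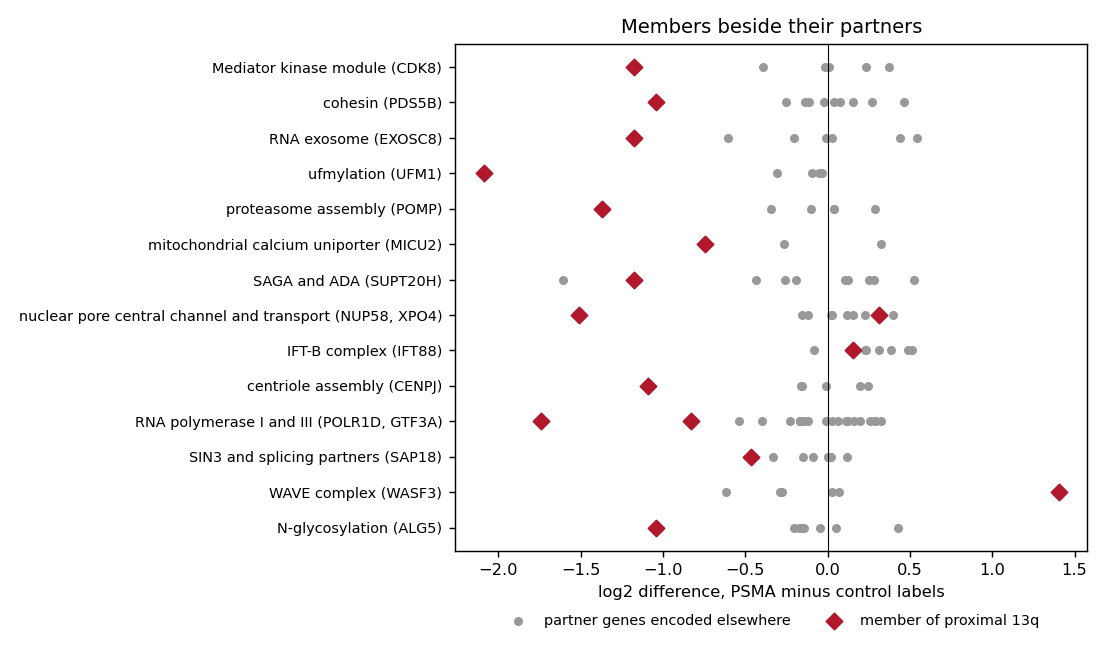
Log2 difference (PSMA minus control labels) of members of proximal 13q (diamonds) beside the tested genes of the same complex or pathway encoded elsewhere (grey points), 1 row per list. Most grey points lie near 0, while the diamonds of the lowered members lie further left. The SAGA row is the exception, with USP22 (-1.61) to the left of SUPT20H (-1.18).

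The partners of the members, encoded elsewhere in the genome, were examined through 18 lists of complexes and pathways, drawn up from general knowledge. Of 181 partner genes 123 were tested, and by limma (adjusted over all tested genes) 35 were lower, 38 higher and 50 not past the threshold. The share that passed was 59.3%, beside 63.6% of all tested genes, and the median log2 difference was 0.01. Of the 5 other genes of the Mediator kinase module, CDK19, the paralog of CDK8, was lower (-0.39), MED13 and MED13L were higher (0.23 and 0.38), and CCNC and MED12 did not pass (-0.02 and 0.01). Of 4 tested genes of the UFM1 pathway, 1, CDK5RAP3, was lower (-0.31), and UFC1, DDRGK1 and UFSP2 did not pass (-0.10 to -0.04). Of 6 tested exosome genes, 1 was lower and 2 were higher. Of 20 tested genes of RNA polymerases I and III and their factors, 8 were lower and 6 higher, from -0.54 to 0.33, where POLR1D and GTF3A had -1.74 and -0.83.

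Among cohesin genes 3 of 9 were lower and 3 higher, and among the 5 tested proteasome assembly genes 1 was lower and 1 higher. Of 8 tested transport genes that accompany NUP58 and XPO4, 1 was lower and 3 were higher. The 8 tested genes of the ciliary IFT-B complex included 7 that were higher and 0 that were lower, beside 30.1% and 33.5% of all tested genes. Their median was 0.27, beside 0.16 for IFT88 itself. In the WAVE complex, 3 of 5 tested genes were lower and 0 higher, with a median of -0.28, whereas WASF3 was higher. Of 7 N-glycosylation genes, 4 were lower and 1 higher. Of 9 PAN3 partners 3 were lower and 2 higher, of 8 SAP18 partners 1 and 0, and of 5 centriole genes 0 and 2. Of 6 LATS2 partners 2 were lower and 2 higher, of 2 MICU2 partners 1 and 1, and of 2 RFXAP partners 1 and 0. Of 9 tested genes of the SAGA and ADA complexes 4 were lower and 4 higher. The largest decrease of any partner was in that list, in USP22, a deubiquitinase encoded on chromosome 17. USP22 went from 3032 ± 56.3 to 993 ± 16.4 (SD, n = 3), a log2 difference of -1.61 (limma adjusted p = 2.2e-08). Chromosome 17 also held runs of consecutive tested genes called lower, of 20 (MAP2K4 to TOP3A) and 10 (TVP23B to TMEM11). Whether the USP22 value goes with its chromosomal neighbours or with SUPT20H was not tested. YAP1, a coactivator held back by the Hippo kinases, fell by 0.69 on the log2 scale (limma adjusted p = 5e-06), while its paralog WWTR1 rose by 0.61 (limma adjusted p = 8e-05) and the exosome gene EXOSC10 by 0.55 (limma adjusted p = 6e-06).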

How the data were processed

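The table deposited by the authors gave processed intensities for 22277 probe sets on 6 arrays. The submitters' processing notes name GCRMA, which corrects background, normalizes arrays together and pulls dim probe sets to a common low level; its version was not given in the sources used here. Values of 3.76 to 17455 were taken as linear, since no source states their scale. Probe sets with exactly 1 gene symbol (19064) named genes.

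Values were log2-transformed. A probe set was kept if 3 or more arrays exceeded the table's median (52.5), and the brightest one represented each of 7035 genes. The groups were compared with limma 3.58.1 in R 4.3.3 (lmFit, eBayes), with two-sided p-values and Benjamini-Hochberg adjustment over all genes. The script was tested on simulated data. Alternatives covered filter, scaling, pseudocount, floor, probe-set mean, test and single arrays. Gene order came from RefSeq (GRCh38.p14). The members and lists were chosen with earlier results of these data known. Named genes were the members, the nearest tested genes on each side and the 2 partners with the largest rise and fall; other genes were named after their values were seen. No label says that replicates were separate cultures, so p-values reflect array-to-array spread that may be only technical. Precision is limited by the 3 arrays in each group.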

Additional observations from a re-analysis of the deposited data

How the results depend on the processing

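The count of lowered members was 25 under the floor, centring, unfiltered, probe-set mean, pseudocount, quantile and trended settings and with any 1 array left out, 23 when all 6 arrays had to exceed the filter, and 22 in the limma test against a fold of 1.5, beside 3.91% of all genes called lower by it. The test against a fold of 1.5 left 2 members higher, and 1 partner gene lower and 0 higher; this test asks for a larger difference by construction. With no filter, and when all 6 arrays had to exceed it, 4 members were higher. Without single arrays, 4 to 5 members were higher, and 26 to 35 partners were lower and 31 to 36 higher. The members' median log2 difference was -1.04 with no filter, -1.07 with the mean of probe sets and -1.04 with a pseudocount of 16, and -1.18 to -1.09 without single arrays. The distal median was 0.51 with no filter, 0.74 with the pseudocount and 0.77 to 0.86 without single arrays. The cause of these shifts was not tested. Of 447 values of single members under the alternatives, 436 kept their direction and side of the threshold, 11 kept their direction only and 0 reversed. CENPJ, FRY and WASF3 gave no value when all 6 arrays had to exceed the filter. Quantile normalization moved the median of all genes from -0.01 to 0.01. No paired analysis was possible because the groups share no replicate numbers.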
